A study of Mus musculus with 6 samples.

Results

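Immune checkpoint and costimulatory ligands are the surface and secreted proteins by which a cell restrains or assists the lymphocytes and macrophages that meet it. Here they are the 10 genes Cd274, Cd80, Cd276, Vtcn1, Vsir, Cd47, Pvr, Nectin2, Lgals9 and Tnfsf9, taken by symbol from the 22116 named genes of a table of RNA-seq read counts. Each symbol matched 1 row. The RNA came from 4T1, a mouse mammary carcinoma cell line grown in culture, so every library is from 1 line. Cells received either the solvent DMSO (3 libraries) or 10 µM P3FI-90, an inhibitor of the histone demethylase KDM3B (3 libraries), for 24 h. The study asked how inhibition of KDM3B in tumor cells acts on anti-tumor immunity. The labels do not say whether the 3 libraries of a group came from separate cultures, so the p-values measure only the spread between these libraries, which may be technical.

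T cells need a signal through costimulatory receptors such as CD28 or 4-1BB besides the antigen signal, and inhibitory receptors such as PD-1 and TIGIT oppose it. PD-L1 (the product of Cd274), B7-H3 (Cd276), B7-H4 (Vtcn1) and VISTA (Vsir) are B7 family proteins known mainly as inhibitors of T cells, while CD80 can engage the activating receptor CD28 or the inhibitory receptor CTLA-4. CD47 binds SIRPα on macrophages and opposes phagocytosis, PVR and nectin-2 bind both the activating receptor DNAM-1 (CD226) and the inhibitory receptor TIGIT, galectin-9 (Lgals9) is a ligand of TIM-3, and Tnfsf9 encodes 4-1BBL, the costimulatory ligand of 4-1BB.

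The promoters of Cd274, Lgals9 and Cd80 are shown because a short motif was found in each of them and because their genes gave different readouts: Cd274 was higher with P3FI-90, Lgals9 was lower, and Cd80 had counts in the P3FI-90 libraries alone. Each run holds the 250 bases before the annotated start, from RefSeq on GRCm38.p6, read 5′ to 3′ on the strand of the gene. Capitals in Cd274 (chr19:29367188-29367437, plus strand) and Lgals9 (chr11:78984925-78985174, minus strand) mark a match, on the opposite strand, to the core of the interferon-stimulated response element. Those in Cd80 (chr16:38458683-38458932, plus strand) mark a match to TGANTCA, a loose pattern for AP-1 in which N is any base.
Cd274 promoter: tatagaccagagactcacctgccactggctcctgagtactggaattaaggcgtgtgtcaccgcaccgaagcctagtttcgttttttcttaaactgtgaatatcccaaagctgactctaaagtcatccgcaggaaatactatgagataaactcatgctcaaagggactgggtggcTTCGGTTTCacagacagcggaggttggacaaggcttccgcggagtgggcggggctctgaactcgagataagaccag
Lgals9 promoter: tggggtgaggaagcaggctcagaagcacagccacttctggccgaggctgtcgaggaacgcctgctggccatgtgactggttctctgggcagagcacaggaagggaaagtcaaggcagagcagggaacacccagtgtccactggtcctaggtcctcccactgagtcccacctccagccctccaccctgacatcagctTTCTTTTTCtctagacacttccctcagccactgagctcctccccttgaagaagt
Cd80 promoter: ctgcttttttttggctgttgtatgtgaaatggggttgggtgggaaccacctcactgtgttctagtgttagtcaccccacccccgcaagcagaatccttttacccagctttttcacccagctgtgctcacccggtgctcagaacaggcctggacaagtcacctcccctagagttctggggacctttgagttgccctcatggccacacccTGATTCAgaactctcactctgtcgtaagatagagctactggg
The element core, searched as GAAANNGAA on both strands, began at position -76 in Cd274 and at -54 in Lgals9, and 7.13% of all 32851 mouse promoter windows of this length held it. The AP-1 pattern, searched as TGANTCA on both strands, began at -42 in Cd80 and was in 6.75% of all windows. The other motifs searched on both strands were GAS (TTCNNNGAA, in 7.02% of windows), the E-box (CACGTG, 6.02%), CRE (TGACGTCA, 1.55%), the TATA box (TATAAA, 12.4%) and the NF-kB consensus (7.25%). GAS and the element core can overlap. None of the 7 motifs was in the windows of Cd276, Vtcn1, Vsir, Cd47 or Nectin2, which says only that these letters are not in those 250 bases, and 8 of the 10 genes had a window in the RefSeq table (no window for Pvr or Tnfsf9). A match is a description of the letters and not a bound site. Cd276 and Cd47 had the windows richest in G and C (77.6% for Cd276 and 73.2% and 74.4% for the 2 starts of Cd47), against 50.4% for Cd274.

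Counts over named genes ranged from 31327094 to 37395732 per library. Genes were tested with the edgeR quasi-likelihood test with Benjamini-Hochberg adjustment over the 12288 genes that passed its filter on low counts, and a gene was called where the adjusted p was under 0.05. P3FI-90 moved most of the transcriptome: 79.3% of the genes tested were called, 39.9% higher and 39.4% lower. Scaling on total counts in place of TMM, which estimates a scaling factor from the bulk of the genes, shifted all log2 fold changes up by a median of 0.21 and turned the 4908 higher and 4841 lower calls into 6179 and 3641. The epithelial markers were all detected, as the label of an epithelial cancer line requires, but 9 of 9 were lower with P3FI-90, and their summed level went from 156500 to 164500 normalized counts in DMSO to 66860 to 70080 in P3FI-90. The leukocyte markers were sparse, with 6 of 15 at 0 in every library (among them Cd4, Cd8a, Adgre1, Nkg7 and Ncr1) and a summed level of 398 to 496.2 normalized counts in DMSO and 405.6 to 515.6 in P3FI-90, and 1 of the 3 that could be tested was higher (Csf1r, from 41.5 ± 18.6 to 121.4 ± 13.2 normalized counts, SD, n = 3). Most of the leukocyte sum was Cd68, at 382.4 ± 45.2 normalized counts in DMSO and 330.3 ± 55.2 in P3FI-90 (SD, not called). The part of either marker list in the results below was not tested. In bulk RNA, fewer cells that express a gene and less RNA per cell cannot be told apart.

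Of the 10 ligand genes, 8 passed the filter and 7 of those 8 were called, against 79.3% of all genes. Cd274, Pvr and Cd47 rose, Cd276, Vsir, Nectin2 and Lgals9 fell, and Tnfsf9 was not called. With 3 of 8 higher and 4 of 8 lower beside 39.9% and 39.4% of all genes, neither the number nor the balance of the calls stood out from the transcriptome, and the median log2 fold change was -0.39 over the 8 genes and 0.01 over all genes tested. For 4 of the 8 (Pvr, Cd274, Vsir and Nectin2) the log2 fold change was over 1 in size, against 23.3% of all genes. The P3FI-90 and DMSO libraries did not overlap for 8 of 8, against 81.2% of all genes. The remaining pair, Cd80 and Vtcn1, had too few counts for the filter. A normalized count is a read count scaled to the mean library size after TMM. A value after ± is the SD over 3 libraries for a count or a ratio of counts. For a log2 fold change, also where a gene is said to rise by a value, it is the standard error (SE) of the fit.

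**Figure D1:**
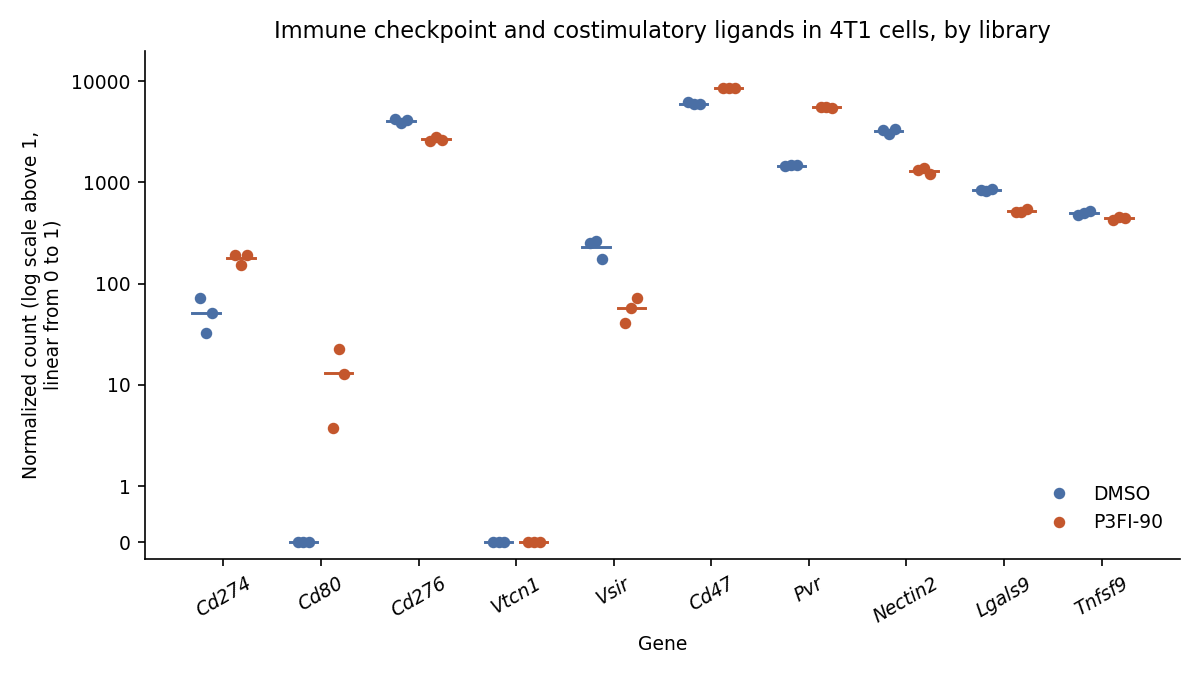
Normalized count of each ligand gene (y axis, log scale above 1 and linear from 0 to 1) in the 3 DMSO (blue) and 3 P3FI-90 (orange) libraries, with a line at each group mean. Pvr and Cd274 sit higher in every P3FI-90 library, Vsir and Nectin2 sit lower, and Cd80 leaves 0 only in P3FI-90.

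Among the B7 family ligands, Cd274 (ENSMUSG00000016496), which encodes PD-L1, rose. Its read counts were 71, 27 and 50 in the DMSO libraries and 204, 170 and 196 in the P3FI-90 libraries. Every P3FI-90 library was above every DMSO library, and DMSO replicate 2 was the lowest of the 6. In normalized counts, Cd274 went from 51.8 ± 19.7 to 178.6 ± 22.3, which is 3.45-fold higher (log2 fold change 1.77 ± 0.26 SE, adjusted p = 1.97e-05, edgeR quasi-likelihood test). The DMSO libraries spread widely, with a coefficient of variation of 38% against 12.5% in P3FI-90, so the level in DMSO is the less certain of the pair. Of the 50-base windows along its exons, 12.4% also occur in other genes, and 511 bases of its exons lie under AC119228.1 on the opposite strand, for which the table has no row. Whether the counting used strand is not given in the sources used here, so reads of such overlapping genes cannot be told apart.

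Vsir (ENSMUSG00000020101), which encodes VISTA, an inhibitory B7 protein best known from myeloid cells, fell. The counts were 252, 217 and 171 in DMSO and 44, 64 and 74 in P3FI-90. The highest P3FI-90 library lay below the lowest DMSO library. The mean normalized count went from 230.3 ± 48.4 to 57.1 ± 15.7, or 4.03-fold lower, and the log2 fold change of -2.01 ± 0.24 (SE; adjusted p = 2.44e-06) was the lowest of the 8 genes.

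Cd276 (ENSMUSG00000035914), which encodes B7-H3, a B7 protein found at high levels on many carcinomas, also fell, but by less. Its counts were 4183, 3233 and 4048 in DMSO and 2728, 3162 and 2702 in P3FI-90. The raw counts of DMSO replicate 2 and P3FI-90 replicate 2 lie close together. DMSO replicate 2 was the shallowest library, and after normalization the groups were apart, at 3894 to 4233 and 2553 to 2843. The mean went from 4086 ± 174.2 to 2681 ± 148.2 normalized counts, 1.52-fold lower (log2 fold change -0.61 ± 0.05 SE, adjusted p = 5.57e-08). Of its exon windows, 9.92% are shared with Gm10657, a gene on the opposite strand that has no row in the table.

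Cd80 (ENSMUSG00000075122), which encodes B7-1, was listed at 0 in the 3 DMSO libraries and had 4, 25 and 13 counts in P3FI-90. All 3 P3FI-90 libraries had counts, but they differed several-fold, with replicate 2 highest and replicate 1 lowest (13.0 ± 9.4 normalized counts). Taking 3 counts over the DMSO group as the most that 0 allows, Cd80 was at least 12.2-fold higher with P3FI-90, a bound that fell to 7.59-fold without P3FI-90 replicate 2. The gene was below the filter and so not tested here; with no filter its adjusted p was 0.00349 (edgeR quasi-likelihood test). Counts of 2 were more frequent than counts of 1 in every library (278 to 389 genes against 81 to 131), and with a floor of 6 counts, which applies where a read pair adds 2 counts, the bound was 6.12-fold.

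Vtcn1 (ENSMUSG00000051076), which encodes B7-H4, had 0 counts in all 6 libraries. That allows up to 3 counts per library, or 0.0802 to 0.0958 CPM (counts scaled to a library of fixed size), and with the floor of 6 counts a limit of 0.16 to 0.19 CPM, counting error only. No change in Vtcn1 was detectable at this depth.

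Pvr (ENSMUSG00000040511) had the highest log2 fold change of the 8 tested genes with all 6 libraries in the fit (without DMSO replicate 1, Cd274 was higher). The counts were 1439, 1221 and 1450 in DMSO and 5977, 6152 and 5588 in P3FI-90. All P3FI-90 libraries were far above all DMSO libraries, and the spread within each group was small, with a coefficient of variation of 0.811% in DMSO and 1.07% in P3FI-90. The normalized mean went from 1469 ± 11.9 to 5533 ± 59.4, or 3.77-fold higher (log2 fold change 1.91 ± 0.04 SE, adjusted p = 5.18e-14, edgeR quasi-likelihood test). None of its exon windows occur in another gene.

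Nectin2 (ENSMUSG00000062300), whose product shares the receptors TIGIT and DNAM-1 with PVR, moved the other way. Its counts were 3278, 2497 and 3334 in DMSO and 1405, 1557 and 1230 in P3FI-90. All 3 P3FI-90 libraries were below the DMSO libraries. The mean went from 3242 ± 208 to 1307 ± 97.8 normalized counts, 2.48-fold lower (log2 fold change -1.31 ± 0.06 SE, adjusted p = 2.02e-10), and 2.61% of its exon windows are shared with Gm20512, which lies on the opposite strand and has no row in the table.

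Pvr and Nectin2 are both on chromosome 7, with 6 protein-coding genes between them, and the ratio of the one to the other within a library needs no scaling between libraries. Per kilobase of exon, Pvr stood at 0.251, 0.279 and 0.248 of Nectin2 in the DMSO libraries and at 2.43, 2.25 and 2.59 times Nectin2 in the P3FI-90 libraries. The order of the pair was therefore inverted in every P3FI-90 library, and the mean ratio was 9.35-fold higher (0.259 ± 0.017 against 2.43 ± 0.17, n = 3 each; exact two-sided permutation p = 0.1, the smallest that 3 against 3 libraries can give). This ratio and those below use all exons joined, and their size, though not their fold change, depends on the length used. Per kilobase of the longest transcript, Pvr and Nectin2 averaged 505.6 and 1186 normalized counts in DMSO and 1905 and 477.7 in P3FI-90. The order of the pair was inverted there too. The next genes to Nectin2, named for their position, did not move as a block. Tomm40, a subunit of the mitochondrial import pore, and Bcam, an adhesion molecule, lie on either side of it and fell. Their log2 fold changes were -1.10 ± 0.05 and -0.82 ± 0.11, while Apoe, just beyond Tomm40, rose by 1.93 ± 0.16 (SE, edgeR quasi-likelihood test). Beyond Bcam, Cblc (-0.03 ± 0.11) and then Bcl3 (-0.20 ± 0.13 SE) were not called. Apoc1, beyond Apoe, had a mean of 0 in both groups.

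Cd47 (ENSMUSG00000055447), the source of the signal against phagocytosis, rose in a narrow range. The counts were 6116, 4925 and 5815 in DMSO and 9194, 9494 and 8783 in P3FI-90. The P3FI-90 libraries were nearly equal after normalization, at 8603, 8537 and 8604. The mean went from 6018 ± 147.8 to 8581 ± 38.6 normalized counts, 1.43-fold higher (log2 fold change 0.51 ± 0.03 SE, adjusted p = 4.11e-09, edgeR quasi-likelihood test).

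Lgals9 (ENSMUSG00000001123), the gene of galectin-9, a secreted sugar-binding protein, fell. It had 834, 677 and 849 counts in DMSO and 550, 573 and 558 in P3FI-90. Once scaled, the DMSO libraries lay between 815.3 and 866.5 and the P3FI-90 libraries between 514.6 and 546.6. The means were 841.9 ± 25.6 and 525.5 ± 18.3, a 1.60-fold difference (log2 fold change -0.68 ± 0.07 SE, adjusted p = 1.18e-06).

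Tnfsf9 (ENSMUSG00000035678), the only TNF family costimulator of the set, was not called. The counts were 473, 412 and 509 in DMSO and 457, 507 and 458 in P3FI-90. The normalized values were close and yet did not overlap, at 478.7, 496.2 and 519.5 in DMSO and 427.6, 455.9 and 448.7 in P3FI-90. The log2 fold change was -0.17 ± 0.09 (SE; adjusted p = 0.107, edgeR quasi-likelihood test), and it was 0.05 (adjusted p = 0.632) when libraries were scaled on total counts, so that the direction rests on the scaling. Of its exon windows, 11.5% are shared with Gm11110 on the opposite strand, which has no row.

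**Figure D2:**
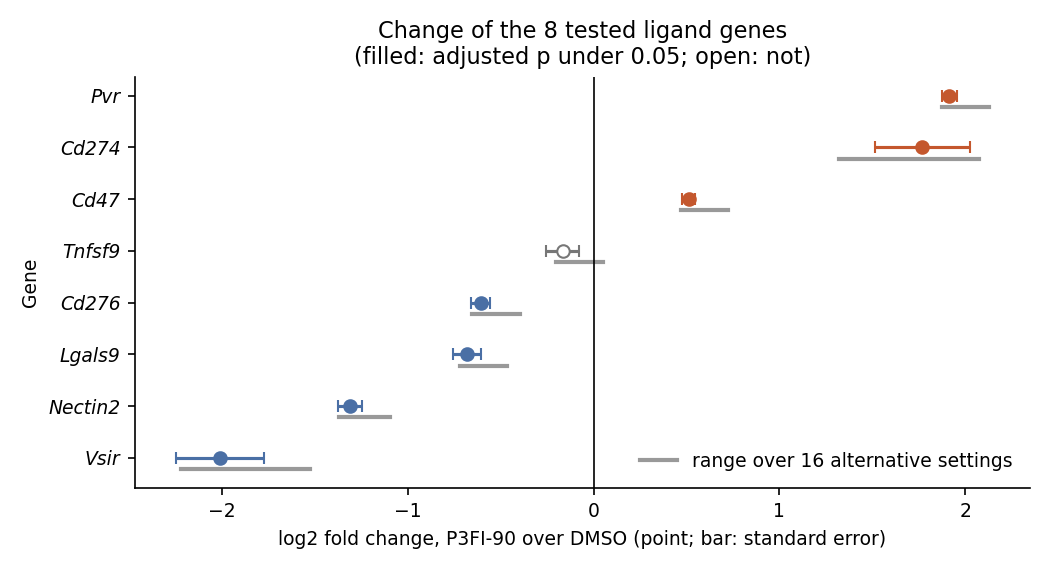
Log2 fold change of P3FI-90 over DMSO (x axis) for the 8 tested ligand genes (y axis), with the standard error as a bar and, below each point, a grey line for the range over 16 alternative settings of scaling, filter, test and libraries. Pvr, Cd274 and Cd47 stay above 0 and Cd276, Lgals9, Nectin2 and Vsir stay below it in every setting, while the line of Tnfsf9 crosses 0.

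Under the 16 alternatives (other scalings, filters and tests, the replicate number as a block, each library left out, assembled transcripts kept), 127 of the 128 values of the 8 tested genes kept their direction and their call, and the exception was Tnfsf9. Cd274 ranged from 1.32 with limma on log2(CPM + 1), where the pseudocount lowers the change of a low gene, to 2.08 without DMSO replicate 1. Vsir ranged from -2.22 to -1.52. The abundant genes moved less, with Pvr between 1.88 and 2.13, Cd47 between 0.47 and 0.73, Cd276 between -0.66 and -0.39, Nectin2 between -1.37 and -1.10 and Lgals9 between -0.72 and -0.47.

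Levels of different genes were compared per kilobase of exon, since a longer transcript gives more reads. In DMSO the order of the normalized count per kilobase was Cd276 (1117), Cd47 (959), Nectin2 (928), Lgals9 (394), Tnfsf9 (386.1), Pvr (239.9), Vsir (45.9) and Cd274 (14.3), with Cd80 and Vtcn1 at 0. Within it, Cd47 and Nectin2 overlapped, as did Lgals9 and Tnfsf9, and the other neighbours above 0 did not. In P3FI-90 the order was Cd47 (1367), Pvr (903.8), Cd276 (732.9), Nectin2 (373.9), Tnfsf9 (344.2), Lgals9 (245.9), Cd274 (49.3), Vsir (11.4) and Cd80 (3.51), and there only Nectin2 and Tnfsf9 overlapped. Pvr went from the 6th to the 2nd place, and PD-L1 and VISTA changed places near the foot of the list. Even after its rise, Cd274 stood at 0.036 ± 0.004 of Cd47 per kilobase (0.015 ± 0.005 in DMSO).

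**Figure D3:**
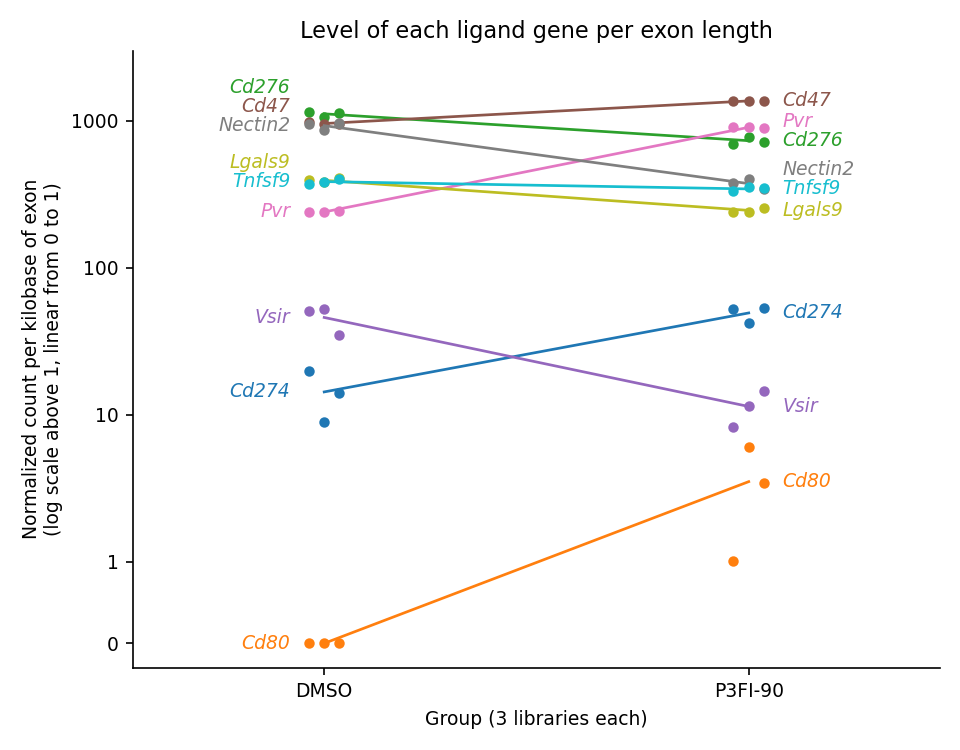
Normalized count per kilobase of exon (y axis, log scale above 1 and linear from 0 to 1) of 9 ligand genes in the DMSO and P3FI-90 libraries, each point a library and each line joining the group means (Vtcn1, at 0 throughout, is left out). Pvr crosses Nectin2, Lgals9, Tnfsf9 and Cd276, and Cd274 crosses Vsir.

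Summed per kilobase of joined exons, the 10 genes stood at 4084 ± 127.4 in DMSO and 4032 ± 55.5 in P3FI-90, and the libraries overlapped. That likeness rests on the gene length used, since with the longest transcript the sums were 4951 ± 149.1 and 5502 ± 59.8, without overlap, and with no length they were 16440 ± 480.2 and 19320 ± 170.6 normalized counts. The makeup of the sum over joined exons differed between the groups. Cd47 was 22.8 to 24.0% of it in DMSO and 33.2 to 34.3% in P3FI-90, and Pvr was 5.71 to 6.10% and then 22.1 to 22.9%. Cd276 made up 27.0 to 27.8% and then 17.5 to 19.0%, and Nectin2 21.9 to 23.5% and then 8.61 to 9.78%. Cd274 stayed a small share, 0.228 to 0.476% in DMSO and 1.03 to 1.32% in P3FI-90. These shares depend on the length too. With the longest transcript in place of all exons joined (2905 bases in place of 6122 for Pvr), Pvr stood at 505.6 per kilobase in DMSO and at 1905 in P3FI-90, where it was then the highest of the 10, and Nectin2 was the highest in DMSO.

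Receptors of these ligands are known mainly from lymphocytes and macrophages, yet several had reads in this tumor line. Of 19 receptor genes, 8 passed the filter. P3FI-90 libraries were higher for 4 of them and lower for 2, against 39.9% and 39.4% of all genes tested, and the median of the 8 log2 fold changes was 1.44 (0.01 over all genes). The leukocyte marker values given above bear on these genes too, and their part was not tested. Pdcd1 (PD-1), Cd226 (DNAM-1) and Pvrig had 0 counts in every library.

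Tigit, the inhibitory receptor for PVR and nectin-2, was the most abundant receptor in DMSO and fell. It had 1864, 1557 and 1940 counts in DMSO and 653, 632 and 600 in P3FI-90, with no overlap. The mean went from 1914 ± 57.6 to 589 ± 21.4 normalized counts (log2 fold change -1.70 ± 0.06 SE, adjusted p = 5.68e-12 by the edgeR quasi-likelihood test), and 4.37% of its exon windows occur in other genes. Pvr per kilobase was 0.115 ± 0.003 of Tigit in DMSO and 1.41 ± 0.05 times Tigit in P3FI-90, 12.2-fold higher. Nectin2 over Tigit moved far less, from 0.446 ± 0.021 to 0.584 ± 0.057, and both genes fell.

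Sirpa, the receptor of CD47, fell from 558.7 ± 25.6 to 298.5 ± 19.1 normalized counts (log2 fold change -0.91 ± 0.10 SE, adjusted p = 1.15e-06, edgeR quasi-likelihood test). The ratio of Cd47 to Sirpa per kilobase was 8.44 ± 0.29 in DMSO and 22.6 ± 1.3 in P3FI-90, which is 2.67-fold higher. Havcr2 (TIM-3), a receptor of galectin-9, rose while Lgals9 fell: 62, 33 and 57 counts became 487, 385 and 397 (log2 fold change 2.88 ± 0.19 SE, adjusted p = 3.68e-09). Lgals9 per kilobase thus went from 20.7 ± 4.8 to 1.71 ± 0.24 times Havcr2.

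Tnfrsf9 (4-1BB), the receptor of the Tnfsf9 product, rose from 43.5 ± 7.2 to 242.2 ± 6.0 normalized counts (log2 fold change 2.47 ± 0.19 SE, adjusted p = 2.36e-08 by the edgeR quasi-likelihood test). The ligand, which was not called, went from 24.6 ± 4.5 to 3.87 ± 0.14 times its receptor per kilobase. Igsf11, which encodes an adhesion molecule reported as a binding partner of VISTA, had the largest log2 fold change of the receptor list at 3.72 ± 0.31 (SE; adjusted p = 5.45e-08). Its counts were 30, 7 and 13 in DMSO and 266, 265 and 223 in P3FI-90, and without DMSO replicate 1 the log2 fold change was 4.40. With a filter of at least 10 counts in every library it was not tested, and the receptors called higher were then 2. For each of the 8 ratios in the plot of within-library ratios the groups did not overlap, and each exact two-sided permutation p was 0.1, the smallest possible. Each gene of these pairs was itself without overlap between the groups, as were 81.2% of all genes tested. The lack of overlap of the ratios is therefore not a separate result about the pairs.

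**Figure D4:**
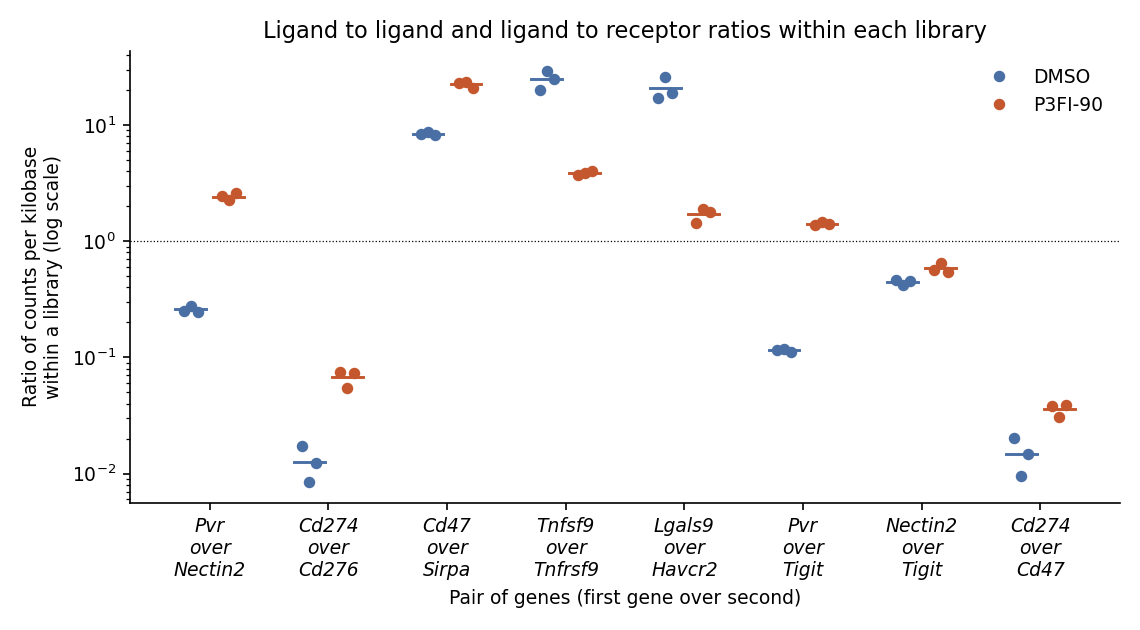
Ratio of counts per kilobase of one gene to another within each library (y axis, log scale), for 8 pairs of ligands or of a ligand and a receptor, in DMSO (blue) and P3FI-90 (orange), with a line at each group mean and a dotted line at 1. Pvr passes from below to above 1 against both Nectin2 and Tigit, and Lgals9 over Havcr2 and Tnfsf9 over Tnfrsf9 drop toward 1.

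Other ligands of these families, listed with the TNF family receptors Cd40 and Tnfrsf14, gave a mixed picture. Of 26 listed genes, 25 had a row, 14 were tested, 7 rose and 3 fell, and the 14 log2 fold changes had a median of 0.45 (0.01 over all genes). The 10 called of 14 stand beside 79.3% of all genes tested, 39.9% higher and 39.4% lower. Tnfsf15 (TL1A), a costimulatory TNF family ligand, had the largest rise, from 62.4 ± 5.8 to 888.9 ± 92.2 normalized counts (log2 fold change 3.83 ± 0.13 SE, adjusted p = 3.04e-12, edgeR quasi-likelihood test). Lgals1 (galectin-1), an inhibitory galectin, had the largest fall (-1.79 ± 0.03 SE on the log2 scale), from 116300 ± 1991 to 33560 ± 1489 normalized counts. Among genes chosen after their values were seen, Icosl (the ligand of ICOS) rose by 1.61 ± 0.18 and Cd40, a receptor, by 1.11 ± 0.12 (SE). Cd24a, chosen in the same way, whose product is an inhibitory ligand for macrophages, had a log2 fold change of -1.68 ± 0.04 (SE).

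Cd86, the other B7 ligand of CD28 and CTLA-4, had 0 counts in all 6 libraries, and Pdcd1lg2 (PD-L2), the neighbor of Cd274 on chromosome 19 with no protein-coding gene between, had 3 counts in 1 P3FI-90 library and 0 elsewhere. Tnfsf4 (OX40L) had 0 counts in DMSO and 10, 13 and 2 in P3FI-90, at least 7.28-fold higher against 3 counts over the DMSO group and at least 3.64-fold against 6 (at least 5.36-fold against 3 without P3FI-90 replicate 2). Like Cd80, it was below the filter. Cd86, Pdcd1lg2 and Tnfsf4 were named after their values were seen.

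Genes known to act on PD-L1 or CD47 were then read from the same fit. All 31 listed genes passed the filter, 13 were higher and 14 lower, beside 39.9% and 39.4% of all genes tested, and the median log2 fold change was -0.01. When libraries were scaled on total counts, 18 were higher and 7 lower, so the balance of the list rests on the scaling. Among all genes tested, that scaling turned 4908 higher and 4841 lower into 6179 and 3641. PD-L1 transcription is known to respond to interferon-γ through JAK kinases and IRF1, and of the 8 genes of that input 5 were higher and 3 lower. Irf1 rose by 0.58 ± 0.05, while Jak2 had a log2 fold change of -0.51 ± 0.04 (SE; these were named after their values were seen). Of the 6 other transcriptional inputs 2 were higher and 3 lower. Rela, the p65 subunit of NF-kB, had the largest rise of the list, from 2835 ± 113.2 to 12230 ± 262.1 normalized counts (log2 fold change 2.11 ± 0.04 SE, adjusted p = 1.37e-14, edgeR quasi-likelihood test). Nfkb1, the gene of another NF-kB subunit, fell (-0.32 ± 0.03 SE on the log2 scale, adjusted p = 9.41e-07 by the edgeR quasi-likelihood test).

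Of the 13 genes for stability, sugar or lipid modification and trafficking of the protein, 5 were higher and 6 lower. These counts stand beside 39.9% and 39.4% of all genes tested. Cmtm6, which protects PD-L1 from lysosomal decay, fell (-0.28 ± 0.06 SE on the log2 scale, adjusted p = 4.40e-04), a call lost when libraries were scaled on total counts (-0.07, adjusted p = 0.307). Its relative Cmtm4 rose by 0.15 ± 0.04. Hip1r, which sends PD-L1 to lysosomes, rose by 0.39 ± 0.06, and Trappc4, which takes part in its recycling, had a log2 fold change of -0.71 ± 0.05 (SE; edgeR quasi-likelihood test). Of the genes that tag PD-L1 for decay or remove the tag, Stub1 (-0.30 ± 0.04) and Cops5 (-0.36 ± 0.04) fell, Spop (0.10 ± 0.04, adjusted p = 0.0556) was not called, and Gsk3b, a kinase that marks PD-L1 for decay, rose by 0.81 ± 0.05.

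The enzymes that modify PD-L1 were split. Stt3a, a catalytic subunit that adds N-linked sugars, rose by 0.52 ± 0.03, whereas its paralog Stt3b was not called (-0.01 ± 0.04, adjusted p = 0.740, edgeR quasi-likelihood test). B3gnt3, which extends those sugars, fell with a log2 fold change of -0.85 ± 0.05. The palmitoyltransferase Zdhhc9 rose by 0.30 ± 0.06 and Zdhhc3 had -0.25 ± 0.03 (SE). Both sheddases fell, Adam17 with the lowest log2 fold change of the list (-0.93 ± 0.04) and Adam10 with -0.17 ± 0.04 (SE). Of all genes tested, 39.4% were lower. Scaled on total counts, Stub1, Zdhhc3 and Adam10 were no longer called, Adam10 turned to 0.04, and Spop (called in 6 of the 16 alternatives), Stt3b and Qpctl were called higher.

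CD47 binds SIRPα best once its N terminus has been converted to pyroglutamate, a step known to be made by the QPCTL enzyme. Qpctl was not called, with 320, 216 and 346 counts in DMSO and 422, 358 and 362 in P3FI-90 (log2 fold change 0.19 ± 0.13 SE, adjusted p = 0.205 by the edgeR quasi-likelihood test). The groups overlapped. Its secreted relative Qpct rose from 41.7 ± 12.8 to 136.2 ± 8.6 normalized counts (log2 fold change 1.69 ± 0.25 SE, adjusted p = 2.54e-05).

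**Figure D5:**
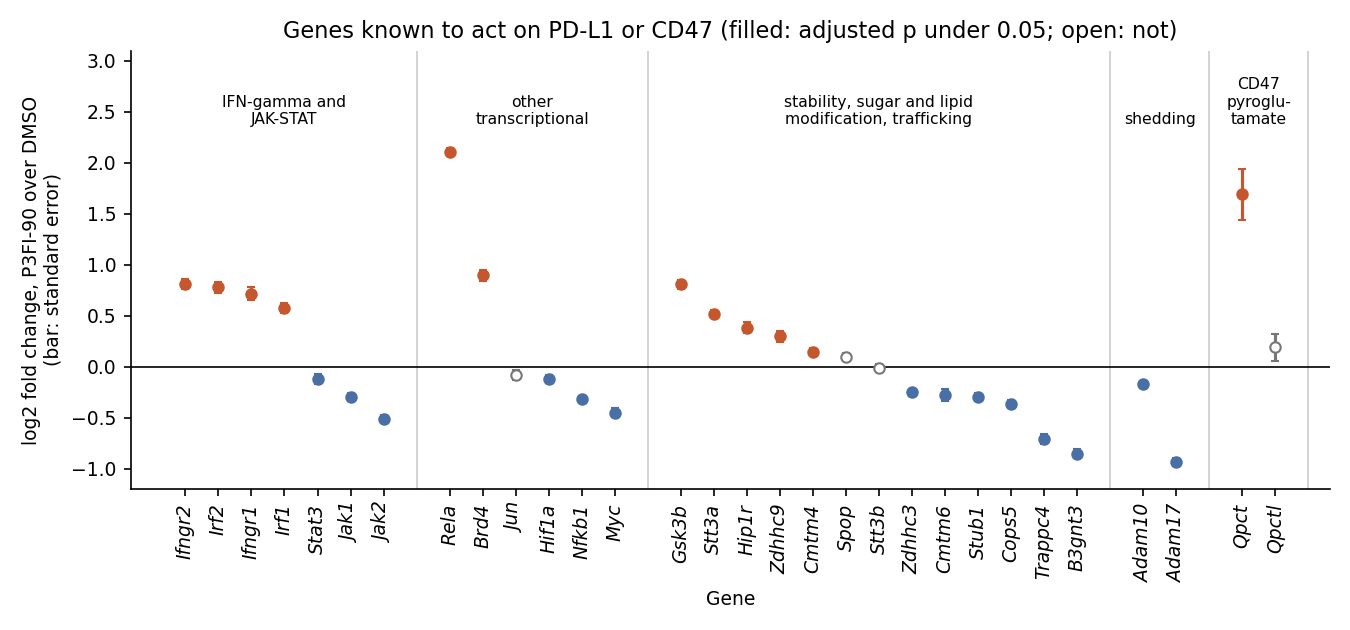
Log2 fold change of P3FI-90 over DMSO (y axis, bar: standard error) for 30 of the 31 genes known to act on PD-L1 or CD47 (x axis), grouped by role, filled where the adjusted p was under 0.05 and open where it was not. Values run from -0.93 (Adam17) to 2.11 (Rela), and each group with more than 2 genes holds both higher and lower ones.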

How the data were processed

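RNA-seq of 6 4T1 libraries was analysed from the table of read counts deposited by the authors, whole numbers per gene with no normalization. The submitters' processing notes name CASAVA, HISAT2, StringTie and the build GRCm39, with no role or version; the counting tool and its use of strand are not given in the sources used here. The 285 rows of assembled transcripts without a gene symbol (0.483 to 0.556% of counts) were left out of library sizes and tests.

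Libraries were grouped by the labels. Genes were filtered with filterByExpr, scaled with TMM and tested with the edgeR 4.0.16 quasi-likelihood test (R 4.3.3) in 1 fit over all 6 libraries, p-values adjusted over the 12288 genes tested, threshold 0.05. The authors used limma; limma 3.58.1 and DESeq2 1.42.0 were run as alternatives. On simulated counts (11830 genes), 58 of 66 genes changed by 0.5, 65 of 67 by 1 and 64 of 64 by 2 on the log2 scale were found, with 9 false calls among 196. The simulation changed few of its genes, in both directions, and gave every gene the same dispersion. In the data 79.3% of the genes tested were called, so the simulated rates do not carry over to these calls. Intervals and limits on a count of 0 cover counting error only.

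The ligand genes and the lists of related genes were chosen with earlier results of these data known. All 10 ligand genes are named. Of each other list, the called genes with the lowest and highest log2 fold change are named. Direct partners or regulators of a ligand with at least 10 counts in each library are named too. For the list of other ligands, all called genes are given. Some genes of the lists enter the counts but are not reported here.

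Exon lengths and shared 50-base windows came from GENCODE M21 (GRCm38), used for lengths and names only, not for coordinates of the counts; 21995 of 22116 named genes, with all 10 ligands, had a gene model there. Promoters came from RefSeq on GRCm38.p6. Same-numbered libraries did not deviate together (correlations -0.021, 0.015 and 0.005), so the main fit did not pair them. The labels do not say whether they were paired, and these correlations cannot decide it. Within a group, libraries differed by more than sampling noise (chi-square per gene 5.58 to 8.61).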

Additional observations from a re-analysis of the deposited data

How the results depend on the processing

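Each library in turn was left out, and 10 other settings of scaling, filter, test, block and rows were tried, the one that kept assembled transcripts having been chosen after seeing the data. The 4908 higher and 4841 lower genes stayed within 1.5 times in each setting. Among the ligands the higher count was 3 or 4 (4 where Cd80 was tested) and the lower count 4. Scaled on total counts, Tnfsf9 was 0.049, Adam10 0.043 and Stt3b 0.20, each reversed by that scaling, which moved the median of all genes by 0.21. Stt3b was also reversed, at 0.005, with at least 10 counts in every library. On total counts 18 regulators were higher and 7 lower (13 and 14 in the main setting). The higher receptors were 2 with at least 10 counts in every library (4 in the main setting), where fewer genes were tested. For the NKG2D ligands, the higher count was 1 on total counts (0 in the main setting) and the lower count 2 with upper quartile scaling, at least 10 counts in every library or limma on log2(CPM + 1) (1 in the main setting), and 0 to 1 with each library left out, 0 without DMSO replicate 1 or P3FI-90 replicate 1; the cause was not tested. With the replicate block, 4802 genes were higher and 4722 lower, and 3 and 4 of the ligands; the block changed no ligand call. Levels per kilobase with the longest transcript moved for Cd47, Pvr, Nectin2 and Lgals9. Depth limits Cd80 and Vtcn1.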

Other observations

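Ligands of NKG2D, an activating receptor of natural killer cells, were read beside the checkpoint ligands. Of 9 listed genes, 5 had a row and 4 were tested, of which 0 were higher and 1 was lower by the edgeR quasi-likelihood test, beside 39.9% and 39.4% of all genes tested. That 1 was Raet1e, a stress-induced ligand, with 66, 40 and 59 counts in DMSO and 22, 34 and 40 in P3FI-90. The normalized libraries of the groups did not overlap, and the log2 fold change was -0.96 ± 0.32 (SE; adjusted p = 0.0146), but without DMSO replicate 1 the adjusted p was 0.0597 and without P3FI-90 replicate 1 it was 0.0654.

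The genes next to a ligand did not all follow it, and the ones given here were chosen after their values were seen. Beside Pvr, Igsf23 had 16.2 ± 2.6 normalized counts in DMSO and 2.13 ± 1.89 in P3FI-90 (log2 fold change -2.82 ± 0.74 SE, adjusted p = 0.00304, edgeR quasi-likelihood test), and Ceacam19 had 0 counts throughout. Ric1, beyond Pdcd1lg2 from Cd274, rose by 1.31 ± 0.05 (SE).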
